A study of Mus musculus with 2 samples.

Results

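The mitochondrial genome encodes 6 protein subunits of respiratory complexes III, IV and V, and their mRNAs are described here in cells from the hippocampus of CT and Opa1 cKO mice. The genes are mt-Cytb of complex III, mt-Co1, mt-Co2 and mt-Co3 of complex IV, and mt-Atp6 and mt-Atp8 of complex V. They were taken by symbol, and all 6 were found among the 22587 symbols listed in both libraries, each under 1 identifier. The other 7 mitochondrially encoded mRNAs belong to complex I and serve as a comparison. Cells had been sorted for YFP and for the absence of propidium iodide, which enters dead cells, from C57BL/6 mice of 12 weeks of age that had received tamoxifen 4 weeks earlier. Opa1 cKO mice carried Opa1-Flox together with Nestin-CreERT2 and ROSA26YFP, and CT mice, named WT in the labels, lacked Opa1-Flox and carried the same Cre driver and reporter. The strain field of the labels gives the same 3 alleles for both samples, so the genotypes are taken from the sample titles, the sorting protocol and the methods of the study. The Cre is driven by a Nestin promoter, so recombination takes place in neural stem cells (NSCs) and in other cells that use this promoter, and YFP marks a cell in which Cre has acted on the reporter.

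The respiratory chain lies in the inner mitochondrial membrane, where complex III passes electrons from ubiquinol to cytochrome c, complex IV (cytochrome c oxidase) passes them on to oxygen, and complex V (ATP synthase) makes ATP from the proton gradient that results. The mitochondrially encoded subunits form the core of these complexes, and the remaining subunits are made from nuclear genes and imported. OPA1, the protein encoded by Opa1, is a dynamin-related GTPase that fuses inner membranes and shapes cristae, the folds in which the complexes sit, and its loss is known to destabilize mitochondrial DNA. Mitochondrial mRNAs are cut from long transcripts of the circular genome, mostly at the tRNAs between the genes, and receive a short poly(A) tail.

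The assay captures poly(A) tails, so a molecule is read next to the 3′ end of its mRNA. For this reason the last 60 bases of the 6 annotated genes are shown. The annotated end of a gene need not be the end of its mRNA, as described below for mt-Atp8. Capitals mark the bases at the stop, and sequence and positions are those of the GENCODE M21 transcripts on mm10 (GRCm38). All 6 genes lie on the plus strand of the mitochondrial chromosome (chrM). Each consists of 1 exon.
mt-Cytb, chrM:15229-15288: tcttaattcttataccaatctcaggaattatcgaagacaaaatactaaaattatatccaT
mt-Co1, chrM:6813-6872: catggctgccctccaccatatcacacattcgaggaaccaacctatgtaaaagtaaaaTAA
mt-Co2, chrM:7637-7696: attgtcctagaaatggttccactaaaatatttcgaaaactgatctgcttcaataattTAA
mt-Co3, chrM:9331-9390: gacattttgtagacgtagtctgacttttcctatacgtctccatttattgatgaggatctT
mt-Atp6, chrM:8548-8607: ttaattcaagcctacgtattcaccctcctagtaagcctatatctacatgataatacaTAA
mt-Atp8, chrM:7910-7969: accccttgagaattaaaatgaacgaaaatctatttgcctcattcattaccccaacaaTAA
The genes mt-Co1, mt-Co2, mt-Atp6 and mt-Atp8 end in a whole TAA stop codon. The annotated mt-Co3 and mt-Cytb end in a lone T, and their lengths of 784 and 1144 bases leave a remainder of 1 when divided by 3, so the stop codon is completed by the poly(A) tail. The complex V genes share 43 bases, chrM:7927-7969, which run from the start codon of mt-Atp6 to the stop codon of mt-Atp8, both in capitals.
mt-Atp8 and mt-Atp6 overlap: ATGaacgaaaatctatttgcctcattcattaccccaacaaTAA
In mammals mt-Atp8 and mt-Atp6 are known to be carried on 1 mRNA whose poly(A) tail follows mt-Atp6, and mt-Atp6 in turn shares its last base, 8607, with the start of mt-Co3. Molecules of the joint mRNA are thus read next to the end of mt-Atp6, and the mt-Atp8 count is low and not a count of mt-Atp8 molecules. Nuclear copies of mitochondrial sequence on chromosome 1 match 4 of the 6 genes. Gm28661 matches 681 of the 684 bases of mt-Co2, Gm10925 matches 678 of the 681 bases of mt-Atp6 and Gm28437 matches 783 of the 784 bases of mt-Co3, each without a mismatch. Gm29216 matches the last 483 bases of mt-Co1 with 1 mismatch. The copies are not listed in the count matrices, and how reads that match several places were counted is not given in the sources used here, so values of these 4 genes carry that uncertainty. The annotation used holds no such copy of mt-Cytb, and none was listed for mt-Atp8 as a whole. The 43 bases that mt-Atp8 shares with mt-Atp6 lie within the stretch that Gm10925 matches, so the mt-Atp8 count carries the uncertainty too.

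The libraries were made with the 10x Genomics 3′ v2 assay, which labels every captured mRNA molecule with a droplet barcode and a unique molecular identifier (UMI), and each came from 3 pooled mice. There were 4634 barcodes with 10799936 UMIs in CT, and 6475 barcodes with 18662032 UMIs in Opa1 cKO. A barcode was kept if it had over 600 and under 7500 genes, a mitochondrial share below 20% and at least 1 UMI of YFP, which left 1790 CT and 3764 Opa1 cKO cells, and 9 barcodes were found among the kept cells of both libraries. Median depth of kept cells was 2555 UMIs in CT and 3008 in Opa1 cKO, so the Opa1 cKO library was the deeper. Clustering, done without the 13 mitochondrial mRNAs so that these could not decide the classes, gave clusters named from marker genes. The classes, with CT and Opa1 cKO cells, were NSC pool-like (1318 and 2610), activated NSC-like (69 and 380), progenitor and neuron-like (140 and 173), ependymal-like (39 and 244), mural-like (95 and 166), endothelial-like (55 and 90) and oligodendrocyte-like (74 and 101). Endothelial-like cells were led by globin genes as well as by Cldn5, and their 10 mural markers summed to 17197 CPM in CT and 14830 in Opa1 cKO, above the 9 endothelial markers at 15681 and 14479 CPM, so this class is not purely endothelial. NSC pool-like cells consisted of cluster 0 (1291 cells of CT and 787 of Opa1 cKO) and of cluster 1 (27 of CT and 1823 of Opa1 cKO), which was led by the stress genes Nupr1, Gdf15 and Ddit3. In this class the 12 NSC pool markers summed to 75475 CPM in CT and 67058 in Opa1 cKO, where CPM are UMIs scaled to a class total of 1e+06, and the 9 oligodendrocyte markers to 379 and 430 CPM, against 82791 and 72875 CPM in oligodendrocyte-like cells. The 6 markers of oligodendrocyte precursors summed to 103 and 291 CPM with 2 of 6 at 0 in each library, and the part of such cells in the values below was not tested. Against the cells of the other classes, cluster 0 was led by Slc7a10, Cxcl14 and F3, and 0 of its first 10 genes were NSC pool markers. Astrocytes had no marker list, so the name NSC pool-like does not tell NSCs from astrocytes. The part of astrocytes in this class was not tested. As 1 library was made per genotype, there is no test and no p-value. The 95% intervals given here reflect the number of UMIs alone, and variation among cells, among mice or among preparations is not in them.

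The targeted gene was read first. For Opa1 itself 69 UMIs were counted in CT NSC pool-like cells and 66 in those of Opa1 cKO, which is 19.2 CPM (14.9 to 24.3) and 7.70 CPM (5.95 to 9.79). The log2 ratio, always given as Opa1 cKO over CT, was −1.32 (−1.83 to −0.81). The assay reads 3′ ends and would count transcripts that lack deleted exons.

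In NSC pool-like cells the 6 mRNAs took 4.63% of the CT and 1.62% of the Opa1 cKO UMIs. Together they stood at 46257 CPM (46035 to 46480) in CT and 16245 CPM (16160 to 16331) in Opa1 cKO, which is 64.9% lower, with a log2 ratio of −1.51 (−1.52 to −1.50). The complex IV mRNAs stood lowest relative to CT, the complex III mRNA came next and the complex V mRNAs last. Of the 6 genes, 4 were more than 2-fold lower in Opa1 cKO and 0 more than 2-fold higher, against 3.85% lower and 4.38% higher among the 11268 genes with at least 20 UMIs in this class. The median log2 ratio of those genes was 0.04. With a minimum of 300 UMIs there were 5449 genes, of which 1.30% were more than 2-fold lower and 2.83% more than 2-fold higher. Their median was 0.15, and small differences below are read against that shift.

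The complex IV genes encode the 3 catalytic-core subunits of cytochrome c oxidase, of which mt-Co1 and mt-Co2 hold its metal centres. For mt-Co1 (ENSMUSG00000064351; chrM:5328-6872), which carries the haems where oxygen is reduced, 29876 UMIs in CT gave 8306 CPM (8213 to 8401) and 21910 UMIs in Opa1 cKO gave 2555 CPM (2521 to 2589), so that the log2 ratio was −1.70 (−1.73 to −1.68). For mt-Co2 (ENSMUSG00000064354; chrM:7013-7696), which receives the electrons of cytochrome c, 10479 UMIs gave 2913 CPM (2858 to 2970) in CT and 13034 gave 1520 CPM (1494 to 1546) in Opa1 cKO, and the log2 ratio was −0.94 (−0.98 to −0.90). For mt-Co3 (ENSMUSG00000064358; chrM:8607-9390), a core subunit without a metal centre, 48144 UMIs gave 13386 CPM (13266 to 13506) in CT and 31800 gave 3708 CPM (3667 to 3749) in Opa1 cKO, and the log2 ratio was −1.85 (−1.87 to −1.83). The genes of complex IV were therefore far from uniform. The log2 ratio of mt-Co3 minus that of mt-Co1 was −0.15 (−0.18 to −0.12), and that of mt-Co1 minus that of mt-Co2 was −0.76 (−0.81 to −0.72). The mt-Co2 mRNA was the highest relative to CT of the 5 well-counted members, and mt-Co3, of the same complex, the lowest.

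Complex III has a single mitochondrially encoded subunit, cytochrome b, which holds the b-type haems and both quinone sites. Its gene mt-Cytb (ENSMUSG00000064370; chrM:14145-15288) had 30362 UMIs and 8442 CPM (8347 to 8537) in CT and 26415 UMIs and 3080 CPM (3043 to 3117) in Opa1 cKO, where the log2 ratio was −1.45 (−1.48 to −1.43). Subunit a of ATP synthase, through which protons pass, is encoded by mt-Atp6 (ENSMUSG00000064357; chrM:7927-8607), with 47481 UMIs and 13201 CPM (13083 to 13321) in CT and 46030 UMIs and 5367 CPM (5318 to 5416) in Opa1 cKO, and a log2 ratio of −1.30 (−1.32 to −1.28). The mt-Cytb ratio was thus the lower, with a difference of −0.16 (−0.19 to −0.13). For mt-Atp8 (ENSMUSG00000064356; chrM:7766-7969), whose small membrane subunit lies beside subunit a, 32 UMIs were counted in CT and 144 in Opa1 cKO, which is 8.90 CPM (6.09 to 12.6) and 16.8 CPM (14.2 to 19.8), a log2 ratio of 0.92 (0.36 to 1.52). It was the only member with a higher level in Opa1 cKO NSC pool-like cells. At 0.0243 UMIs per cell in CT and 0.0552 in Opa1 cKO it adds little to the complex V sum, which is nearly that of mt-Atp6.

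Summed by complex, the complex IV mRNAs stood at 24606 CPM in CT and 7782 in Opa1 cKO (68.4% lower; log2 ratio −1.66, −1.68 to −1.65), the complex III mRNA was 63.5% lower and the complex V mRNAs, at 13210 and 5384 CPM, were 59.2% lower (log2 ratio −1.30, −1.31 to −1.28). The log2 ratio of complex IV differed from that of complex III by −0.21 (−0.23 to −0.18) and from that of complex V by −0.37 (−0.39 to −0.34). Complex V differed from the complex I mRNAs, at −1.29 (−1.31 to −1.27), by −0.00 (−0.03 to 0.02). Among these 5449 genes 4 had a lower ratio than mt-Co3, 6 than mt-Co1, 10 than mt-Cytb, 19 than mt-Atp6 and 94 than mt-Co2, these counts including other mitochondrial mRNAs.

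**Figure D1:**
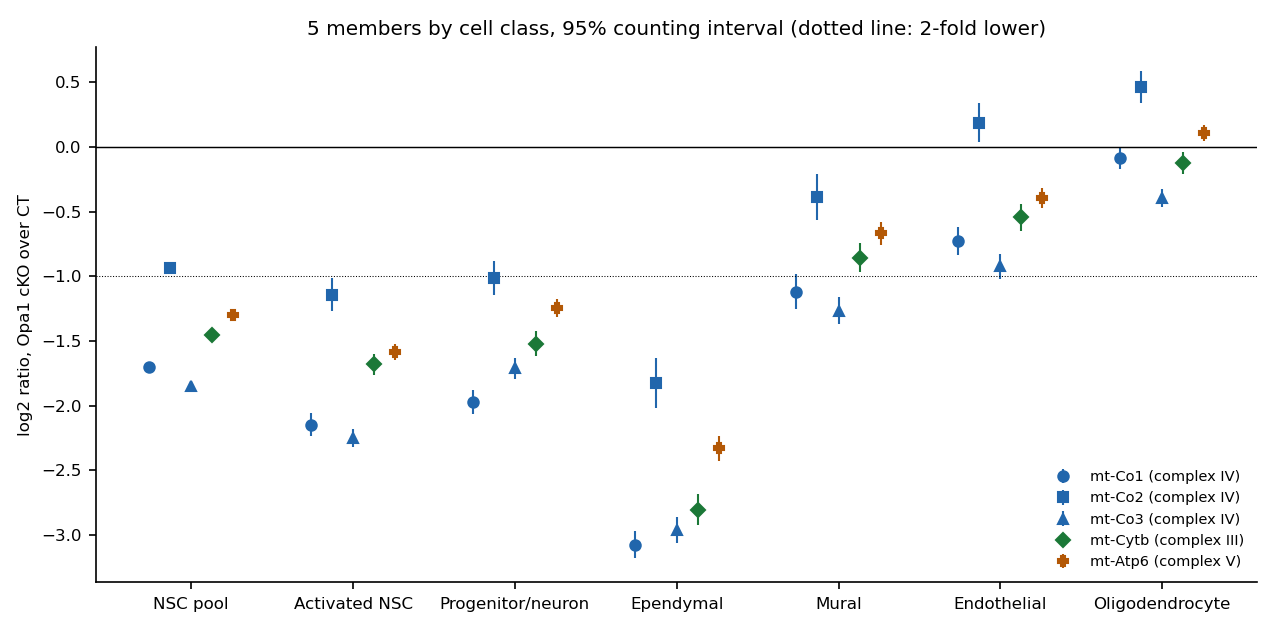
Log2 ratio of CPM, Opa1 cKO over CT, for the 5 well-counted mRNAs (all but mt-Atp8) in the 7 cell classes, with bars for the 95% interval of counting error, a line at 0 for equal levels and a dotted line at 2-fold lower. In every class mt-Co3 or mt-Co1 is the lowest of the 5 well-counted genes and mt-Co2 the highest. The values are −3.08 for mt-Co1 and −1.83 for mt-Co2 in ependymal-like cells, and −0.39 for mt-Co3 and 0.46 for mt-Co2 in oligodendrocyte-like cells.

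Across the classes the members differed most in how far they stood below CT. The summed log2 ratio was −2.70 (−2.75 to −2.65) in ependymal-like, −1.82 (−1.86 to −1.79) in activated NSC-like, −1.53 (−1.57 to −1.49) in progenitor and neuron-like, −1.51 in NSC pool-like and −0.89 (−0.94 to −0.84) in mural-like cells. In endothelial-like cells it was −0.54 (−0.58 to −0.50), and in oligodendrocyte-like cells −0.06 (−0.10 to −0.03). Progenitor and neuron-like and NSC pool-like cells are neighbours in that order that did not differ beyond their intervals. Markers of other cells moved beside these values. In activated NSC-like cells the 7 microglia markers summed to 14.8 CPM in CT (5 of 7 at 0) and 142 in Opa1 cKO (0 of 7 at 0), and the 6 oligodendrocyte precursor markers to 266 and 99.2 CPM. In mural-like cells the 9 endothelial markers went from 770 to 240 CPM, with 0 of 9 at 0 in either library, and the microglia markers from 203 to 44.9 CPM. Progenitor and neuron-like cells had their own 12 markers at 20033 CPM in CT and 15304 in Opa1 cKO. Their NSC pool markers went from 5483 to 8468 CPM and their 6 mature neuron markers from 280 to 538 CPM. The part of these in the members' values was not tested. More than 2-fold lower were 5 of 6 members in activated NSC-like (background 6.69%), 5 of 5 tested in progenitor and neuron-like (8.51%), 5 of 5 in ependymal-like (7.25%), 2 of 5 in mural-like (5.58%), 0 of 5 in endothelial-like (7.59%) and 0 of 6 in oligodendrocyte-like cells (6.24%). More than 2-fold higher was 1 of 6 in oligodendrocyte-like cells (background 5%), mt-Atp8 on 5 CT and 18 Opa1 cKO UMIs, and 0 in activated NSC-like (11.7%), progenitor and neuron-like (5.6%), ependymal-like (12.9%), mural-like (8.15%) and endothelial-like cells (4.42%). In classes with 5 tested the sixth, mt-Atp8, had under 20 UMIs. The mural-like pair was mt-Co1 at −1.12 and mt-Co3 at −1.27. Ependymal-like cells, which line the ventricles and carry beating cilia, had the lowest ratio, and there mt-Co1 had the lowest ratio of all 7060 genes with at least 20 UMIs, at −3.08 (−3.18 to −2.97). Over the 7 classes the log2 ratio of the 6 members correlated with that of the complex I mRNAs at r = 0.98, a description over points that share the libraries.

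The order of the classes by level was not the same in the 2 libraries. In CT the summed level was highest in activated NSC-like cells at 53459 CPM and ependymal-like cells at 53095 CPM, whose intervals overlap, followed by NSC pool-like cells at 46257, oligodendrocyte-like at 40626, mural-like at 36463, progenitor and neuron-like at 36014 and endothelial-like at 32973 CPM. The mural-like and the progenitor and neuron-like intervals overlap too. In Opa1 cKO it was oligodendrocyte-like cells that came first at 38908 CPM, then endothelial-like at 22668, mural-like at 19685, NSC pool-like at 16245, activated NSC-like at 15122, progenitor and neuron-like at 12485 and ependymal-like at 8180 CPM, with no neighbours overlapping. Ependymal-like and activated NSC-like cells thus went from the top in CT to the lower part of the order in Opa1 cKO.

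**Figure D2:**
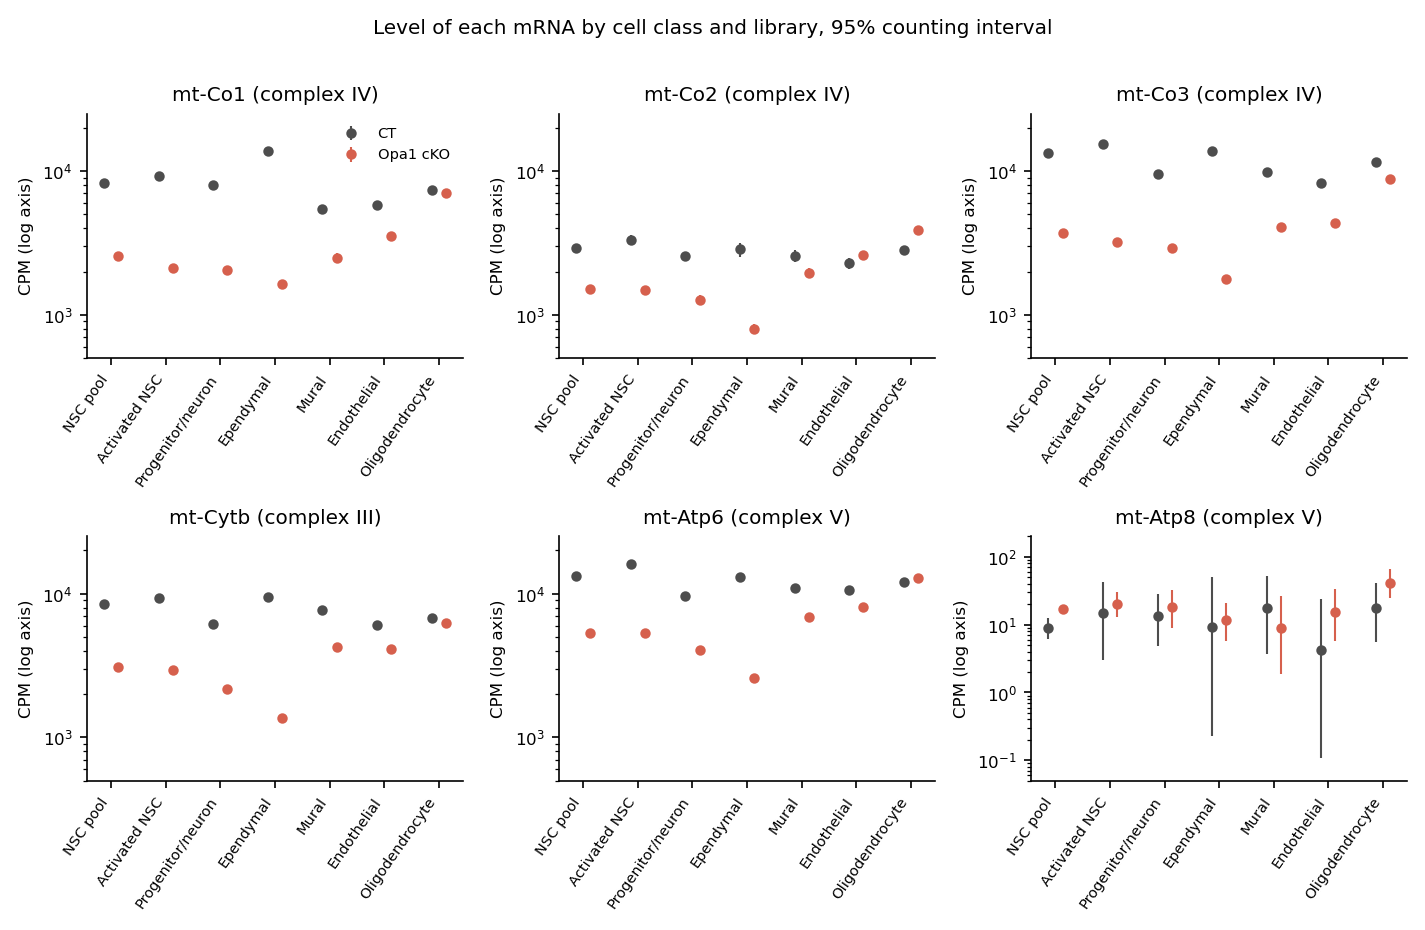
Level in CPM, on a log axis, of each of the 6 mRNAs in the 7 cell classes of the CT and the Opa1 cKO library, with 95% Poisson intervals. The panel of mt-Atp8 has an axis of its own, and its wide bars reflect few UMIs. The libraries lie close together in oligodendrocyte-like cells, at 40626 and 38908 CPM summed, and far apart in ependymal-like cells, at 53095 and 8180 CPM.

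The members followed that pattern with differences of their own. mt-Co1 in CT was highest in ependymal-like cells at 13854 CPM (13165 to 14569), well above activated NSC-like cells at 9317 CPM, and lowest in mural-like cells at 5443 CPM. In Opa1 cKO it ranged from 6998 CPM in oligodendrocyte-like to 1642 CPM in ependymal-like cells, where CT had its highest level. mt-Co2 had the flattest profile in CT, from 3306 CPM in activated NSC-like to 2289 CPM in endothelial-like cells, and from the second to the last rank every neighbouring pair overlapped. In Opa1 cKO mt-Co2 went from 3909 CPM in oligodendrocyte-like to 802 CPM in ependymal-like cells, and its Opa1 cKO level was above the CT level in oligodendrocyte-like (2834 CPM in CT) and endothelial-like cells (2289 and 2610 CPM). mt-Co3 ranged in CT from 15328 CPM in activated NSC-like to 8231 CPM in endothelial-like cells and in Opa1 cKO from 8770 CPM in oligodendrocyte-like to 1787 CPM in ependymal-like cells. It was lower in Opa1 cKO in all 7 classes, with the interval below 0 in each. The same held for mt-Co1 and mt-Cytb. The levels of mt-Cytb were 9507 and 9376 CPM in ependymal-like and activated NSC-like cells of CT, which overlap, and 6007 CPM in endothelial-like cells, against 6255 CPM in oligodendrocyte-like and 1360 CPM in ependymal-like cells of Opa1 cKO. mt-Atp6 ranged from 16119 CPM in activated NSC-like to 9631 CPM in progenitor and neuron-like cells in CT and from 12934 CPM in oligodendrocyte-like to 2578 CPM in ependymal-like cells in Opa1 cKO. Its Opa1 cKO level was the higher in oligodendrocyte-like cells, 12934 against 12005 CPM. mt-Atp8 had 1 to 32 UMIs per class in CT and 3 to 144 in Opa1 cKO, all neighbouring intervals overlapped, and outside NSC pool-like cells the interval of its log2 ratio spanned 0 in every class.

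Among the complexes the order of NSC pool-like cells, IV lowest, then III, then V, was found in the point values of all 7 classes. For complexes IV, III and V the log2 ratios were −2.04, −1.68 and −1.58 in activated NSC-like, −1.69, −1.52 and −1.24 in progenitor and neuron-like and −2.85, −2.81 and −2.33 in ependymal-like cells. They were −1.06, −0.85 and −0.67 in mural-like, −0.64, −0.54 and −0.39 in endothelial-like and −0.15, −0.12 and 0.11 in oligodendrocyte-like cells. Complex IV lay below complex V beyond the interval in each class, from a difference of −0.53 (−0.64 to −0.41) in ependymal-like to −0.25 (−0.35 to −0.15) in endothelial-like cells. Complexes IV and III were not separated in ependymal-like (−0.05, −0.18 to 0.09), endothelial-like (−0.10, −0.22 to 0.02) and oligodendrocyte-like cells (−0.02, −0.12 to 0.07), nor were complexes III and V in activated NSC-like cells (−0.10, −0.20 to 0.00).

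The same order thus appeared in oligodendrocyte-like cells, in which the members' sum was almost the same in the libraries. There mt-Co2 had a log2 ratio of 0.46 (0.34 to 0.59) and mt-Co3 of −0.39 (−0.46 to −0.32), although 0 of 74 CT and 0 of 101 Opa1 cKO cells had under 1% of UMIs from mitochondrial mRNAs (exact intervals up to 4.86% and 3.59%). NSC pool-like cluster 0, in which most CT cells and 787 Opa1 cKO cells lay, gave a like pattern. Within it the log2 ratio was −0.40 for mt-Co3, −0.27 for mt-Co1, −0.11 for mt-Cytb, 0.059 for mt-Atp6 and 0.47 (0.43 to 0.51) for mt-Co2, with a sum of −0.12 (−0.13 to −0.11). The library and the genotype cannot be told apart, so the order was also read relative to oligodendrocyte-like cells and within the Opa1 cKO library.

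**Figure D3:**
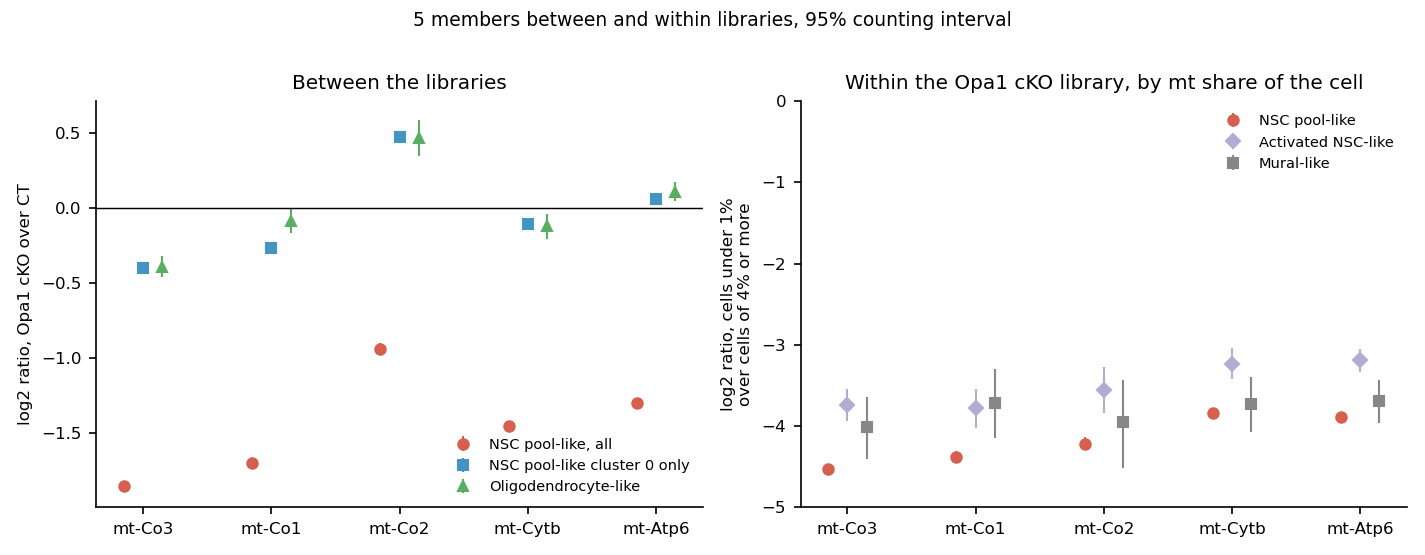
Left, log2 ratio of Opa1 cKO over CT for the members in NSC pool-like cells, in NSC pool-like cluster 0 alone and in oligodendrocyte-like cells. Right, log2 ratio within the Opa1 cKO library of cells under 1% over those with 4% or more of UMIs from mitochondrial mRNAs, in NSC pool-like, activated NSC-like and mural-like cells, all with 95% counting intervals. In the 3 groups on the left mt-Co3 is the lowest of the well-counted genes, at −1.85, −0.40 and −0.39, and mt-Co2 the highest, at −0.94, 0.47 and 0.46, while on the right mt-Co2 of NSC pool-like cells, at −4.21, lies below mt-Cytb at −3.83 and mt-Atp6 at −3.88.

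Taken relative to oligodendrocyte-like cells, the log2 ratios of NSC pool-like cells drew together. The difference from the oligodendrocyte-like ratio was −1.61 (−1.70 to −1.53) for mt-Co1, −1.46 (−1.53 to −1.39) for mt-Co3, −1.41 (−1.47 to −1.34) for mt-Atp6, −1.40 (−1.53 to −1.28) for mt-Co2 and −1.33 (−1.42 to −1.24) for mt-Cytb. The gap between mt-Co3 and mt-Co2, −0.91 in the ratios themselves, was then −0.06 (−0.20 to 0.09). Complex IV as a sum still stood lowest, at −1.51, with a difference of −0.18 (−0.28 to −0.08) from complex III and −0.11 (−0.19 to −0.03) from complex V. Gene by gene this did not hold for all of complex IV. While mt-Co1 lay below mt-Cytb (−0.28, −0.40 to −0.16), mt-Co3 was not separated from mt-Atp6 (−0.05, −0.15 to 0.04). Nor was mt-Co2 separated from mt-Atp6 (0.003, −0.14 to 0.14) or mt-Cytb (−0.07, −0.23 to 0.08). Complex III was no longer below complex V (0.08, −0.03 to 0.18). Relative to endothelial-like cells, which also carry mural markers, the values were −1.02 (−1.08 to −0.95) for complex IV, −0.91 (−1.02 to −0.81) for complex III and −0.90 (−0.98 to −0.82) for complex V. Against that reference complex IV was below complex V (−0.12, −0.22 to −0.015) but not separated from complex III (−0.11, −0.23 to 0.019) or from the complex I mRNAs (−0.02, −0.13 to 0.09). The member with the lowest value was then mt-Co2 at −1.13 (−1.28 to −0.97), and mt-Co3 minus mt-Co2 was 0.20 (0.016 to 0.38). The order of the members thus depended on the class taken as reference. These relative values rest on 74 CT and 101 Opa1 cKO oligodendrocyte-like and on 55 and 90 endothelial-like cells. The oligodendrocyte-like reference itself held markers of other cells. Its 12 NSC pool markers went from 10310 CPM in CT to 14098 in Opa1 cKO and its 10 mural markers from 55.6 to 227 CPM. Its 9 oligodendrocyte markers went from 82791 to 72875 CPM. The part of these in the relative values was not tested.

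Cell by cell, the members' share of UMIs in NSC pool-like cells had a median of 4.10% in CT, with a lowest cell of 0.708% and a highest of 15.6%. In Opa1 cKO the median was 0.446%, from 0% to 12.6%. Under 1% of UMIs from all 13 mitochondrial mRNAs were found in 2 CT cells (0.152%, 0.0184 to 0.547) and 1585 Opa1 cKO cells (60.7%, 58.8 to 62.6), while 623 Opa1 cKO cells had 4% or more. The Opa1 cKO cells thus spread from no UMI of any member to the upper range of CT. Such low cells made up 70.9% of Opa1 cKO ependymal-like, 48.0% of progenitor and neuron-like, 28.9% of mural-like, 28.4% of activated NSC-like and 2.22% of endothelial-like cells.

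**Figure D4:**
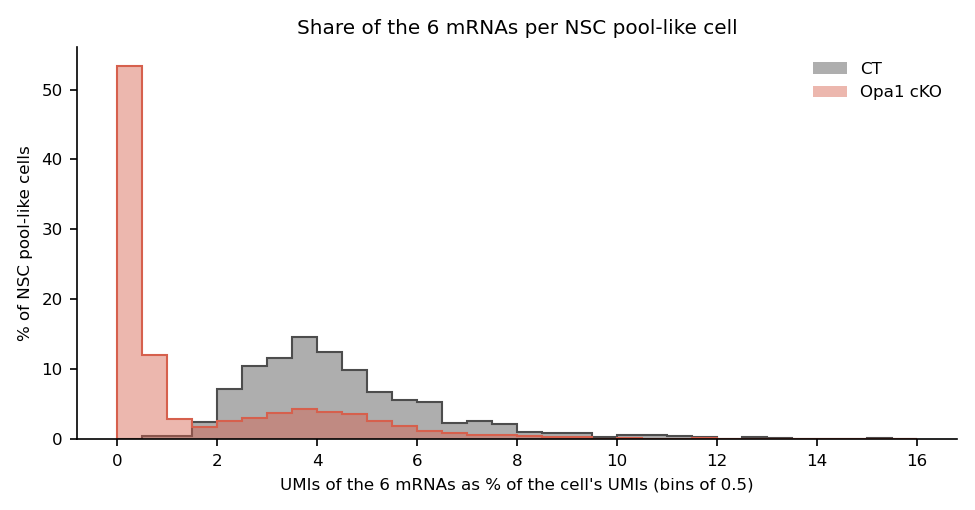
Distribution of NSC pool-like cells by the share of a cell's UMIs that the 6 mRNAs take (%), as the percentage of each library's cells, for 1318 CT and 2610 Opa1 cKO cells. CT forms 1 hump around its median of 4.10%, and Opa1 cKO has 53.4% of its cells in the lowest bin, under 0.5%, with the rest spread over the CT range.

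To compare detection at equal depth, each cell was thinned to 1500 UMIs, and the 92 CT and 215 Opa1 cKO NSC pool-like cells with fewer were set aside. For mt-Co1 the share of cells with a UMI was then 99.9% in CT and 63.8% in Opa1 cKO (100% and 77.0% without thinning). For mt-Co2 the shares were 95.1% and 54.5% (97.8% and 67.1%), and for mt-Co3 100% and 69.0% (100% and 82.5%). They were 100% and 74.9% (100% and 87.2%) for mt-Cytb, and 100% and 84.8% (100% and 93.1%) for mt-Atp6. The median thinned cell went from 18 UMIs of mt-Co3 in CT to 1 in Opa1 cKO, from 11 to 1 for mt-Co1, from 4 to 1 for mt-Co2, from 12 to 2 for mt-Cytb and from 17 to 3 for mt-Atp6. Detection of mt-Atp8 was 1.31% and 2.76% (2.43% and 5.36%). Of the 5 well-counted members the 3 of complex IV were thus detected in the smallest shares of Opa1 cKO cells. For mt-Co2 and mt-Co1 this partly repeats CT, where their thinned shares, 95.1% and 99.9%, were already the smallest. mt-Co3 was at 100% in CT. No class lacks these genes, so no class gives the share that free RNA would produce. In oligodendrocyte-like cells, where no cell was under 1%, thinned shares of the 5 well-counted members were 97% or more in both libraries.

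Within the Opa1 cKO library the makeup of the mitochondrial UMIs could be followed from nearly empty to full cells with no difference between libraries. Cells were put into 7 bins by their mitochondrial share, from under 0.5% (1000 cells) to 8 to 20% (96 cells). From the lowest to the highest bin the complex IV mRNAs took 25.1% (24.2 to 25.9), 26.7%, 29.4%, 37.3%, 39.0%, 39.1% and 38.8% (38.3 to 39.3) of mitochondrial UMIs, so the step lay between the bins of 1 to 2% and 2 to 4%. The complex III mRNA held 14.7% (14.0 to 15.4) in the lowest and 14.4% (14.0 to 14.8) in the highest bin, and 14.2% to 15.3% between. Complex V held 24.7% (23.9 to 25.6) in the lowest and 25.7% (25.2 to 26.1) in the highest. What complex IV lacked in the low bins was matched by complex I, which stood at 35.5% (34.6 to 36.4) in the lowest and 21.1% (20.7 to 21.6) in the highest bin. In CT, where cells under 1% were only 2, complex IV held 42.1% in the bin of 4 to 6% and 41.2% (36.1 to 46.5) in the 12 cells with 1 to 2%.

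**Figure D5:**
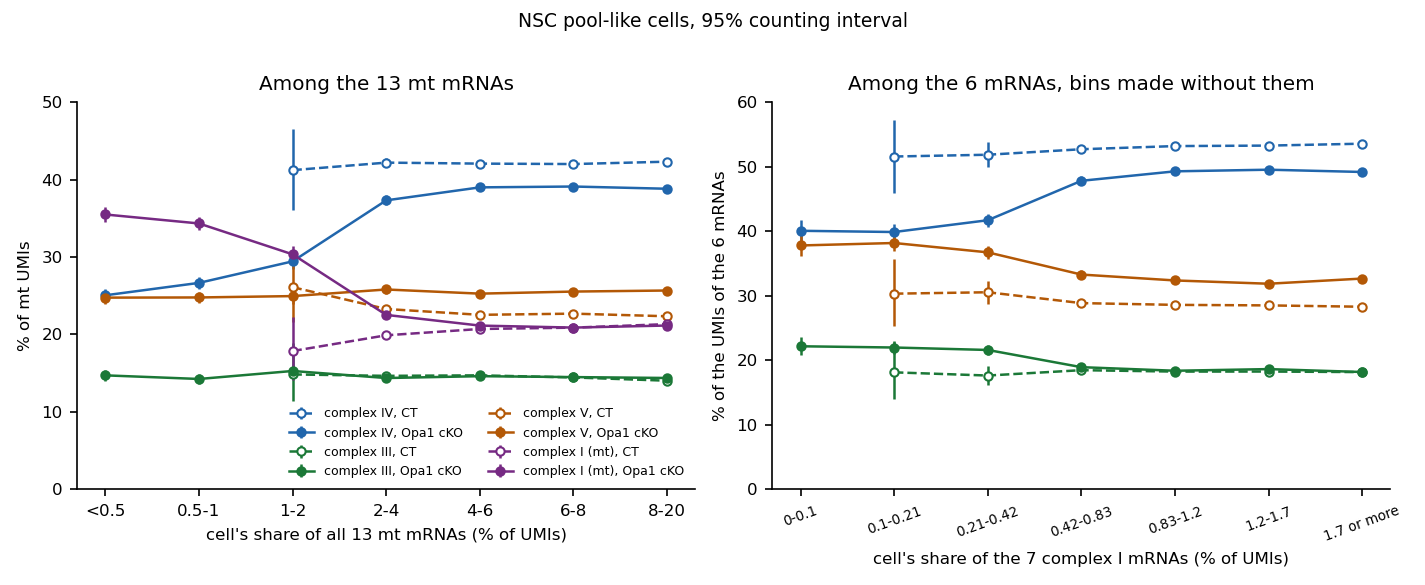
Left, share of mitochondrial UMIs (%) taken by the mRNAs of complexes I, III, IV and V in NSC pool-like cells, by bins of each cell's mitochondrial share (%), for Opa1 cKO (filled, solid) and CT (open, dashed), with 95% binomial intervals and bins of under 10 cells left out. Right, share of the 6 members' UMIs (%) by bins of the cell's complex I share, where complex IV goes from 49.2% to 40.1%. On the left, toward the lowest bin of Opa1 cKO complex IV goes from 38.8% to 25.1% and complex I from 21.1% to 35.5%, while complexes III and V stay within 14.2% to 15.3% and 24.7% to 25.8%.

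Since the mitochondrial share that bins the cells contains the members, the cells were also binned by their share of complex I mRNAs alone, which does not. Among the UMIs of the 6 members the complex IV mRNAs then held 40.1% (38.5 to 41.7) in the lowest and 49.2% (48.6 to 49.8) in the highest bin of Opa1 cKO cells. Complex III held 22.2% (20.8 to 23.5) and 18.2% (17.7 to 18.6), and complex V 37.8% (36.2 to 39.4) and 32.7% (32.1 to 33.2). The lower complex IV share in depleted cells was therefore found with bins that used no member. In CT the complex IV share was between 51.6% and 53.5% in every bin that held cells.

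In Opa1 cKO NSC pool-like cells under 1%, against those with 4% or more, each complex IV gene had a lower ratio than mt-Cytb and mt-Atp6. For mt-Co3 the levels were 513 and 11857 CPM (log2 ratio −4.53), for mt-Co1 390 and 8085 CPM (−4.38) and for mt-Co2 254 and 4711 CPM (−4.21). For mt-Cytb they were 644 and 9179 CPM (−3.83) and for mt-Atp6 1089 and 16079 CPM (−3.88). How far the members lie below 0 follows from the choice of the cells, and only the differences among them bear on the order. Complex IV differed from complex III by −0.58 (−0.65 to −0.52), and complexes III and V did not differ beyond the interval (0.03, −0.03 to 0.10). mt-Co2, the least reduced of the well-counted members between libraries, lay here below mt-Cytb and mt-Atp6 with the rest of its complex, although mt-Co1 was still below it (−0.16, −0.27 to −0.06). mt-Atp8 had 15.0 CPM in the low and 21.0 CPM in the high cells, a log2 ratio of −0.49 (−1.04 to 0.08), so its share of mitochondrial UMIs was 0.336% in the low and 0.0332% in the high cells. Whether UMIs counted at mt-Atp8 come from free RNA, from uncut transcripts or from the nuclear copy that covers its end was not tested.

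The same split was made where other classes had enough cells. In activated NSC-like cells of Opa1 cKO (108 under 1%, 34 with 4% or more) the complex IV share of the members' UMIs was 40.1% (37.6 to 42.8) in the low and 48.8% (47.5 to 50.2) in the high cells, and the log2 ratio of complex IV differed from that of complex III by −0.48 (−0.70 to −0.25). In mural-like cells (48 and 26) the shares were 40.8% (35.8 to 46.0) and 44.2% (42.3 to 46.0), and the difference from complex III, −0.17 (−0.59 to 0.24), was not detectable at this depth.

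At matched mitochondrial share the libraries themselves differed in makeup. In NSC pool-like cells with 4 to 6% (534 CT and 340 Opa1 cKO cells) mt-Co2 held 4.85% of mitochondrial UMIs in CT and 7.37% in Opa1 cKO, mt-Co3 23.4% and 19.0%, mt-Co1 13.8% and 12.6%, mt-Cytb 14.7% and 14.6%, and mt-Atp6 22.5% and 25.2%. Oligodendrocyte-like cells showed the same directions for mt-Co2 (5.72% and 8.18%), mt-Co3 (23.2% and 18.4%) and mt-Atp6 (24.2% and 27.1%). Among the well-counted members mt-Co2 was thus the one whose share was higher by the largest factor in Opa1 cKO cells that were not depleted, and the source of this difference was not tested.

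The nuclear genes of the same complexes did not share the pattern. In NSC pool-like cells the summed subunits stood at 5427 CPM in CT and 6264 in Opa1 cKO for complex III (log2 ratio 0.21, 0.18 to 0.23), 11812 and 13041 CPM for complex IV (0.14, 0.13 to 0.16) and 11058 and 12600 CPM for complex V (0.19, 0.17 to 0.20), close to the median shift of 0.15. All 3 sums were higher in Opa1 cKO in every class. In oligodendrocyte-like cells, where the members' sum was almost the same, the ratios of complexes III, IV and V were 0.42, 0.27 and 0.34. The median of all genes in that class was 0.003. More than 2-fold lower were 0 of 9 nuclear complex III, 0 of 14 complex IV and 0 of 18 complex V genes. The share over all 11268 genes with at least 20 UMIs in this class was 3.85%, and in lists of this size such counts lie near it. The list medians were 0.31, 0.10 and 0.15, against 0.04 over all those genes. For complex III, the core protein gene Uqcrc2 was at 0.74 and Uqcrb at 0.71, and Uqcrh at 0.04 and Uqcr11 at −0.24. For complex IV, Cox5a was at 0.34 and the isoform genes Cox4i2 and Cox7a1 at −0.40 (46 CT and 83 Opa1 cKO UMIs) and −0.51 (62 and 104). Cox6a2, the heart and muscle isoform of subunit 6a, had 0 UMIs in the NSC pool-like cells of CT and 163 in those of Opa1 cKO. This is at least 22.8-fold higher with CT set at 3 UMIs. It was the 1 gene of these lists more than 2-fold higher, against 4.38% of all 11268 genes. For complex V, Atp5c1 and Atp5b, of the catalytic head, were at 0.57 and 0.51, and Atp5md and Atp5k, small membrane subunits, at −0.08 and −0.54.

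Of 29 assembly factors 28 had at least 20 UMIs, with a median of 0.35 and, near the all-gene share of 3.85%, 1 more than 2-fold lower. This was Cox15, which makes the haem of complex IV, at −1.55 on 43 CT and 35 Opa1 cKO UMIs, named after its value was seen. The others named by rule were Cox16 at 0.97, Cox7a2l, which joins complexes III and IV, at 0.87, the copper carrier Cox17 at −0.43 and Pet100 at −0.67. Of the 12 factors for stability and translation of mitochondrial mRNA, 0 were beyond 2-fold (all genes: 3.85% lower and 4.38% higher) and the median was 0.30. Among these Tbrg4 was at 0.88, Fastkd2 at 0.70, and Pnpt1 and Supv3l1, which degrade mitochondrial RNA, at 0.20 and 0.06. Each median of the nuclear lists was above 0 in the class in which 4 of the 6 mitochondrial mRNAs were more than 2-fold lower. The medians of all genes there were 0.04 with at least 20 UMIs and 0.15 with at least 300. Those of the complex IV and V lists, 0.10 and 0.15, lay close to this general shift.

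Outside the 13 mitochondrial mRNAs, the genes whose level over the 7 classes of both libraries was most like the members' sum were Dcaf6 (r = 0.82), AU022252 (0.81), Tmed7 (0.81), Tmf1 (0.80) and Myo18a (0.79), among 7149 genes and over 14 points of log2(CPM + 10) that share 2 libraries. Dcaf6 lay between 7.37 and 54.8 CPM and AU022252 between 9.84 and 27.4 CPM. In CT ependymal-like cells 1 UMI is 9.13 CPM, so points of these genes in small classes rest on few UMIs. Among the 10 mitochondrial mRNAs of the heavy strand other than mt-Atp8 and mt-Nd4l, the log2 ratio in NSC pool-like cells had a correlation with position of start of 0.02, with length of −0.19 and with GC content of −0.65. These values cover the 10 genes alone. Of those left out, mt-Nd4l, with the highest GC content (41.1%) and a log2 ratio of −0.14, goes against the GC trend. mt-Atp8, with the lowest (31.9%) and 0.92, goes with it, but its count is not one of mt-Atp8 molecules. All these ratios are between the libraries, and part of their spread among genes was also found in oligodendrocyte-like cells.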

How the data were processed

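The authors aligned reads of the 10x 3′ v2 libraries to mm10 with Cell Ranger (version 2.1.1 per the labels; the matrix headers give software version 3.1.0). The deposited values are UMI counts per gene and barcode without normalization, and whole numbers in both libraries. Counts of the 22625 identifiers were summed into 22587 symbols. Barcodes were kept with over 600 and under 7500 genes, under 20% of mitochondrial UMIs and at least 1 YFP UMI, normalized with SCTransform without the 13 mitochondrial mRNAs and clustered on 8 components at resolution 0.2 (R 4.3.3, Seurat 5.3.0, sctransform 0.4.2). To name a cluster its genes were ranked by fold against all other cells with a pseudocount of 10 CPM, and the cell type with the largest number of markers in the first 50, at least 3, was taken. Clusters 0 and 1 had only 1 NSC pool marker in the first 50 genes even against the cells of named clusters. They took their name in a second pass against those cells, by a looser rule. It counted markers more than 2-fold higher, at least 3, and 7 of the 12 NSC pool markers were so in each. This step was added after the clusters had been seen. Scrublet marked 2 of 1790 CT and 3 of 3764 Opa1 cKO cells (0.112% and 0.0797%), too few to have worked, and doublets were not removed.

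UMIs were summed per class and library and scaled to CPM (python 3.11.15 with pandas 2.3.3, numpy 2.4.6, biopython 1.88, scanpy 1.11.5, scipy 1.17.1 and matplotlib 3.10.9). CPM have exact Poisson intervals and shares exact binomial ones, and log2 ratios were given intervals by splitting their summed UMIs binomially. Differences of log2 ratios have Woolf intervals. The interval calculations were tested on simulated data. A share over 2-fold was counted among genes with at least 20 UMIs in the class. With 1 library per genotype no test was made and cells were not treated as replicates. The members, gene lists and markers were chosen with earlier results of these data known. Named are the members, Opa1, of each nuclear list the 2 highest and 2 lowest genes by log2 ratio with at least 100 UMIs, and the 5 genes most like the members' sum among those with at least 300 UMIs. Sequence and coordinates come from GENCODE M21, to which all 13 mitochondrial mRNAs were matched by identifier. The 10 alternative settings changed the denominator, filters on cells, genes used for clustering, resolution, normalization, weighting of cells, depth and doublets.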

Additional observations from a re-analysis of the deposited data

Results flagged for a closer look

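For a pair of members the direction of the difference between libraries was not the same in all cell classes. The log2 ratio of mt-Co2, Opa1 cKO over CT, was −0.94 in NSC pool-like cells but 0.19 (0.04 to 0.34) in the endothelial-like class and 0.46 (0.34 to 0.59) in the oligodendrocyte-like class. For mt-Atp6 it was −1.30 in NSC pool-like cells, and 0.11 (0.05 to 0.17) in the oligodendrocyte-like class. With 1 library per genotype these differences between classes were not tested, and the intervals cover counting error only.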

How the results depend on the processing

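No paired analysis was possible because each genotype had 1 library, and for the same reason no replicate could be left out. Values below are log2 ratios of Opa1 cKO over CT in NSC pool-like cells, in the order sum of the 6 mRNAs, complex III, complex IV and complex V. With UMIs of genes other than the 13 mitochondrial mRNAs as the denominator they were −1.57, −1.51, −1.72 and −1.35, with no YFP filter −1.25, −1.21, −1.39 and −1.05, with cells weighing equally −1.48, −1.42, −1.62 and −1.27, and with each cell thinned to 1500 UMIs −1.44, −1.39, −1.58 and −1.24. The sum and complex IV were −1.49 and −1.63 with all genes used for clustering and −1.52 and −1.68 at resolution 0.4. The other alternatives moved none of the 4 values beyond its counting interval. The setting that changed most was chosen after seeing the data: in cluster 0 alone, which by its making leaves out cluster 1 and so most depleted Opa1 cKO cells, the values were −0.12, −0.11, −0.22 and 0.060, and mt-Co2 at 0.47 and mt-Atp6 at 0.059 were reversed. The order of the complexes and that of the 6 members were kept in 11 of 11 alternatives, of which the denominator, which shifts all values alike, and the doublet setting, which took out 1 CT and 2 Opa1 cKO cells of the class, could hardly change it. Every alternative compares the same libraries, so none could remove a difference between them. The order of the members was not kept relative to oligodendrocyte-like or endothelial-like cells, nor within the Opa1 cKO library, as described above. Limits are the single library per genotype, the depth of 2555 and 3008 median UMIs per kept cell, free RNA and doublets that were not removed, and the nuclear copies of mt-Co1, mt-Co2, mt-Co3 and mt-Atp6. The copy of mt-Atp6 also covers the end of mt-Atp8. For mt-Atp8, with 32 UMIs in CT, small differences were not detectable at this depth.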

Other observations

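Barcodes that passed every filter but that on YFP, having no YFP UMI, were outside the comparisons above. Clustered together with the others, 1851 CT and 1481 Opa1 cKO such cells fell among NSC pool-like cells. In them the log2 ratio of Opa1 cKO over CT was −1.005 for mt-Co3, −0.87 for mt-Co1, −0.68 for mt-Cytb, −0.52 for mt-Atp6, −0.06 for mt-Co2 and 1.07 for mt-Atp8, with a sum of −0.70. The members stood in the same order as in cells with YFP, and each of the 5 well-counted ones was nearer to 0. All cells had been sorted for YFP, so a missing UMI does not show that a cell lacked the reporter, and the share of recombined cells among them was not tested.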
